A study of Drosophila melanogaster with 4 samples.

Results

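The vacuolar-type proton pump (V-ATPase) genes of the adult Drosophila melanogaster gut were taken as all genes in the count table whose symbol begins with Vha. There were 32 of them among 17510 genes. The annotation lists 33 such symbols. The identifier of the remaining one, Vha44 (FBgn0287825, subunit C), matched no row of the table, so Vha44 was not analysed here. RNA came from dissected adult intestines from which the Malpighian tubules and crop had been taken away. The flies of the first genotype had an RNAi transgene against CG5789 from the National Institute of Genetics (RNAi 1 and RNAi 2), and those of the other were labelled wild type (wild type 1 and wild type 2), with 2 libraries each. CG5789, now Cftr, is the fly gene studied here as a model of human CFTR. The driver of the RNAi and the age and sex of the flies are not given in the sources used here, and the labels name no transgene or background control, so effects of the transgene, the background and the knockdown cannot be told apart.

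The V-ATPase is a rotary machine made of a cytosolic V1 sector, which splits ATP, and a membrane V0 sector, which carries protons. It acidifies lysosomes and endosomes in nearly every cell. In insect epithelia it also sits in the plasma membrane, where the proton gradient drives ion transport, and the copper cells of the fly midgut depend on it to secrete acid. Many subunits are encoded by several paralogous genes, of which some serve single tissues.

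Total counts were 30252763 and 23674485 in RNAi 1 and 2, and 30537063 and 11294882 in wild type 1 and 2. The targeted gene was not lower in both RNAi libraries: Cftr (FBgn0039207) had 13.8 and 17.5 CPM in RNAi 1 and 2, against 13.8 and 43.4 CPM in wild type 1 and 2. CPM are counts relative to library size after TMM scaling, which sets the libraries to a common level from the bulk of their genes. Every direction given here is therefore for libraries as labelled. As a check of the tissue, all 7 enterocyte markers were detected in each library, with sums of 34599 and 29166 CPM in RNAi 1 and 2, against 42998 and 38139 CPM in wild type 1 and 2. Most of that came from the trypsin gene alphaTry (log2 fold change of RNAi over wild type -0.48). The median over the 7 was 0.14, with 5 above 0, and the sterol transporter gene Npc1b was highest at 1.75. A principal component that held 52.6% of the variance, the most of any, set RNAi 1 and wild type 1 (set 1) apart from RNAi 2 and wild type 2 (set 2). No label names these sets, which were read from the counts, and each holds 1 library per genotype. They differed by transcript length: across 6718 genes whose mean reached 5 CPM and whose length is annotated, the log2 ratio of set 2 to set 1 had a Pearson correlation with log2 exonic length of 0.584 in RNAi and 0.594 in wild type. The labels do not say whether the paired libraries of each genotype had separate flies as their source. Every p-value rests on the spread between those libraries, and this spread may be technical.

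Of the 32 genes, 23 passed the count filter and were tested, and 18 of these had a mean of at least 5 CPM. The 18 form 1 nearly complete pump. On the TPM scale (counts divided by exonic length and brought to the same sum in each library), the proton-carrying ring subunit c, encoded by Vha16-1 (FBgn0262736), stood at 2107 and 4149 TPM in RNAi 1 and 2, against 2489 and 3761 TPM in wild type 1 and 2. In each library it was above every other member. Vha13 (subunit G, part of a peripheral stalk) came next by its mean, with 1287 and 1211 TPM in RNAi 1 and 2, against 1547 and 1406 TPM in wild type 1 and 2. Vha68-2, VhaPPA1-1, VhaAC39-1, VhaAC45, Vha26, Vha14-1, VhaM9.7-b, Vha36-1 and Vha55 followed. The ranges of Vha68-2 and Vha26, which reached 1355 and 1278 TPM, overlapped that of Vha13. Among the genes that followed, neighbouring ranges over the 4 libraries overlapped, so that no order among neighbours can be given.

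**Figure D1:**
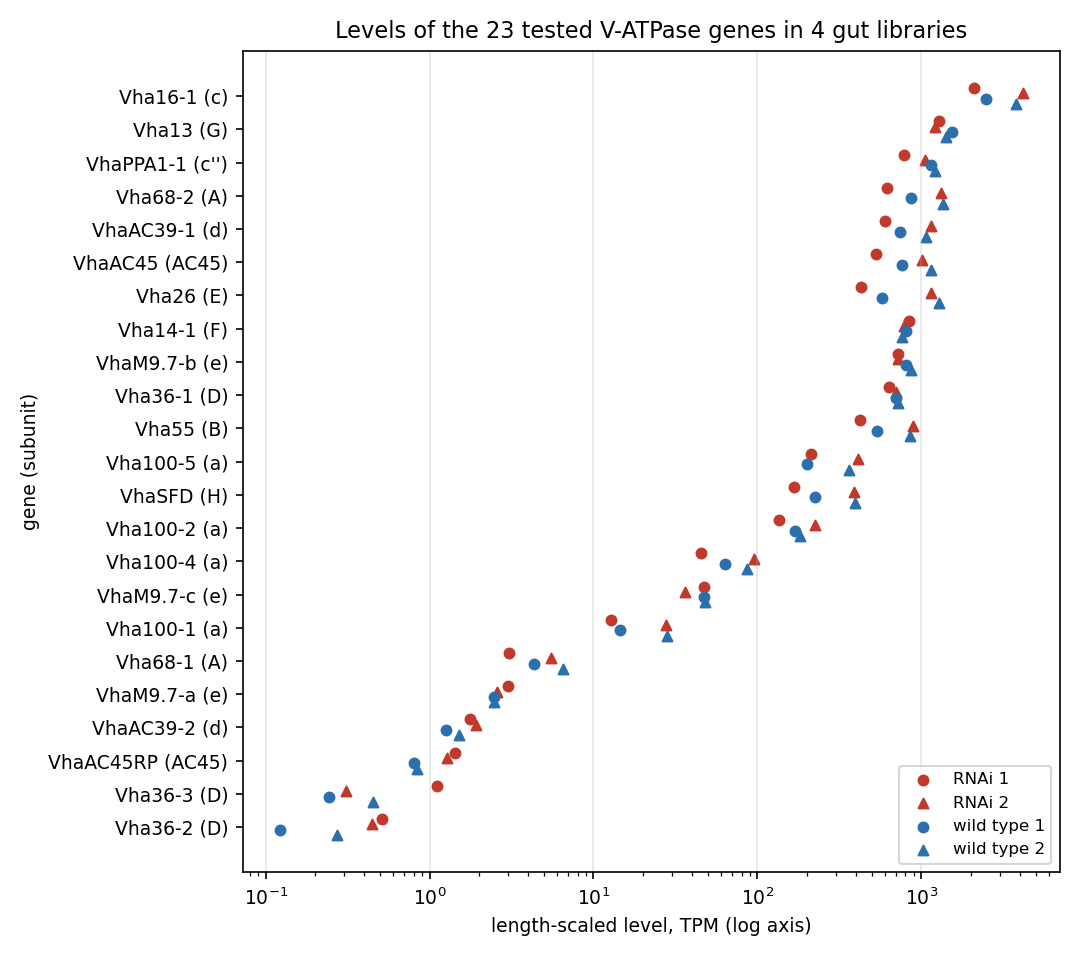
Length-scaled level (TPM, log axis) of each tested V-ATPase gene in the 4 libraries, with the subunit letter in brackets. RNAi libraries are red and wild-type libraries blue, circles are set 1 and triangles set 2. Vha16-1 lies highest at 2107 to 4149 TPM, and Vha36-2 and Vha36-3 lie near the lower end of the scale.

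A single paralogue supplied almost all of the RNA of most subunits. As a share of the length-scaled counts of its subunit, Vha68-2 took 99.5% and 99.6% of subunit A in RNAi 1 and 2, against 99.5% and 99.5% in wild type 1 and 2. Vha36-1 took at least 99.7% of subunit D, Vha16-1 at least 99.97% of subunit c and VhaAC39-1 at least 99.7% of subunit d in each of the 4 libraries. Subunit e, a small membrane protein, had a minor second source. VhaM9.7-b made up 93.5% and 94.8% of it in RNAi 1 and 2, against 94.2% and 94.4% in wild type 1 and 2, and VhaM9.7-c most of the rest. Neighbouring genes differed widely: VhaPPA1-1 (14902330 to 14904061 of chromosome arm 3R, BDGP6 assembly, minus strand) had 27115 and 24820 counts in RNAi 1 and 2, against 39193 and 13922 in wild type 1 and 2. VhaPPA1-2 (14899606 to 14900277 on the same strand) had 7 and 0 counts in RNAi 1 and 2, against 1 and 0 in wild type 1 and 2.

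No V-ATPase gene passed an adjusted p of 0.05 between the genotypes. In edgeR's quasi-likelihood test 0 of 23 were called, and 0 were at an unadjusted p under 0.05, where 0.125% of the 9637 genes tested were called and 3.83% were at an unadjusted p under 0.05. DESeq2 and limma-voom also called 0 of 23, against 0.955% and 0.125% of all genes. With the library set as a term in the model, edgeR, DESeq2 and limma-voom again called 0, against 7.10%, 4.33% and 8.29% of all genes. In that edgeR fit 3 members, VhaPPA1-1, VhaAC45 and Vha68-1, were at an unadjusted p under 0.05, a level that 17.7% of all genes reached. In bulk samples, fewer cells of a type and less RNA per cell cannot be told apart.

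Although no gene was called, the fitted values of the abundant members were mostly below 0. Over the 18 members of at least 5 CPM the log2 fold changes, RNAi relative to wild type, ran from -0.47 to 0.04 with a median of -0.24, beside a median of -0.01 over all 6760 genes at that level. The median over all 23 tested members was -0.19. The 95% intervals of the fitted log2 fold changes reached between 0.88 and 1.29 to either side, wider than any of these values. Without RNAi 1 the median of the tested members was 0.13, and without wild type 2 it was 0.02. Without wild type 1 it was -0.29, and without RNAi 2 it was -0.44. Leaving out any of these libraries leaves the genotypes with unequal numbers of libraries from each set.

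Within the sets the lower values in RNAi were larger in set 1. All 18 abundant members were lower in RNAi 1 than in wild type 1, at ratios from 0.641 to 0.981, where 56.1% of all genes at that level were lower. In set 2, 14 of 18 were lower in RNAi 2 than in wild type 2, at ratios from 0.694 to 1.13 over the 18, where 48.0% of all genes were lower. The same 14 were thus lower in both sets, where 34.1% of genes were. With library size alone as the scaling, 10 of 18 were lower in both sets, beside 22.9% of genes, since that scaling moved the median log2 fold change of all genes tested to 0.11. In set 1 that scaling left 15 of 18 lower, beside 2858 of the 6760 genes. Upper-quartile factors left 16 of 18 lower in set 1, beside 3351 genes. A set holds 1 library per genotype, so these ratios have no replicate check.

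**Figure D2:**
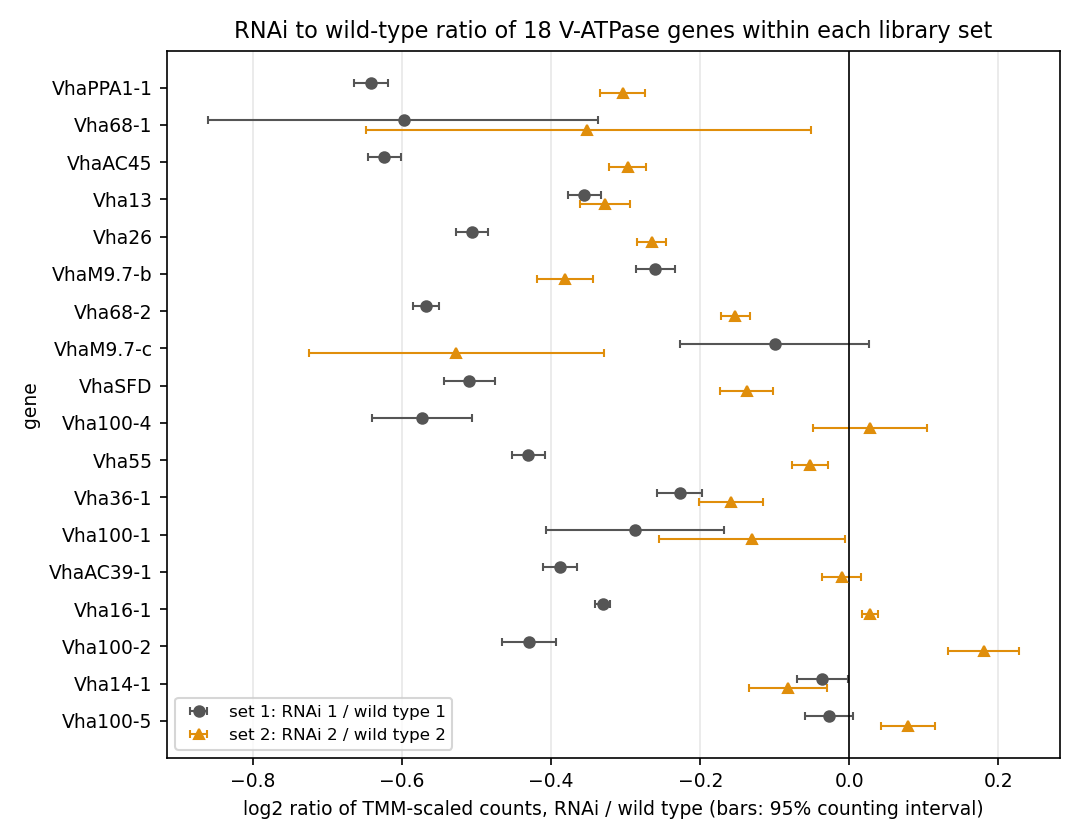
Log2 ratio of RNAi to wild type for the 18 V-ATPase genes of at least 5 CPM, within set 1 (grey circles) and set 2 (orange triangles). Bars are exact 95% intervals that cover counting error only. Every set 1 point lies below 0, whereas Vha100-2, Vha100-5, Vha16-1 and Vha100-4 lie above 0 in set 2.

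Among the V1 genes, the catalytic subunits differed less between the genotypes than between the sets. Vha68-2 (subunit A, which holds the catalytic site) had 1401 and 2578 CPM in RNAi 1 and 2, against 2077 and 2867 CPM in wild type 1 and 2. Vha55 (subunit B, its partner in the ATP-splitting hexamer) had 970.1 and 1747 CPM in RNAi 1 and 2, against 1307.5 and 1812.5 CPM in wild type 1 and 2. In both genes RNAi 1 was lowest and the genotypes overlapped, with log2 fold changes of -0.31 (SE 0.45) and -0.20 (SE 0.45). Within sets 1 and 2 the ratios of RNAi to wild type were 0.675 and 0.899 for Vha68-2, and 0.742 and 0.964 for Vha55. Vha68-1, the minor subunit A gene, had 6.70 and 10.5 CPM in RNAi 1 and 2, against 10.1 and 13.4 CPM in wild type 1 and 2, and Vha68-3 had 6 and 8 counts in RNAi 1 and 2, against 12 and 4 in wild type 1 and 2. The log2 fold change of Vha68-1 was -0.45 (SE 0.41), with ratios of 0.661 in set 1 and 0.784 in set 2.

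Over all 4 libraries, unpaired by set, the stalk genes split into those with both RNAi libraries below both wild-type libraries and those without. Vha13 (subunit G) had 996 and 809.9 CPM in RNAi 1 and 2, against 1274 and 1017 CPM in wild type 1 and 2. Vha36-1 (subunit D of the central rotor) had 555 and 526 CPM in RNAi 1 and 2, against 649 and 587 CPM in wild type 1 and 2. Neither gene overlapped between genotypes. Their ratios were alike in the sets, 0.782 and 0.797 for Vha13 and 0.854 and 0.896 for Vha36-1 in sets 1 and 2. Overlap does not measure the difference within the sets. Vha26 overlapped, but its ratios of 0.704 and 0.832 in sets 1 and 2 were below those of Vha36-1. In all, 4 of the 18 abundant members had both RNAi libraries below both wild-type libraries, where 11.8% of genes at that level did. These 4 were among the 6 members with the shortest exonic length.

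The other V1 genes overlapped between the genotypes. Vha26 (subunit E, the partner of G in the peripheral stalks) had 1031 and 2387 CPM in RNAi 1 and 2, against 1465 and 2869 CPM in wild type 1 and 2. VhaSFD (subunit H, which bridges V1 and V0) had 389 and 776 CPM in RNAi 1 and 2, against 554 and 854 CPM in wild type 1 and 2. Vha14-1 (subunit F of the rotor) had 451 and 365 CPM in RNAi 1 and 2, against 463 and 386 CPM in wild type 1 and 2. Vha26 and VhaSFD were higher in both set 2 libraries than in both set 1 libraries, whereas Vha14-1 was lower in both, although E, H and F belong to the same sector. Their log2 fold changes between genotypes were -0.34 (SE 0.55), -0.27 (SE 0.48) and -0.06 (SE 0.39).

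In the V0 sector, VhaPPA1-1 (FBgn0028662), a proteolipid of the proton ring, had the lowest fitted value of all members in the edgeR fit with genotype as its only term. With the set as a further term Vha68-1 was lower at -0.48, and with a trend on transcript length removed Vha68-1, VhaAC45 and Vha26 were lower. VhaPPA1-1 had 869 and 1012 CPM in RNAi 1 and 2, against 1356 and 1249.6 CPM in wild type 1 and 2. Both RNAi libraries lay below both wild-type libraries, and RNAi was at 0.641 times wild type in set 1 and 0.810 times in set 2. The log2 fold change was -0.47 (SE 0.38), with a 95% interval of -1.36 to 0.42 and an edgeR adjusted p of 1.0, and -0.47 (SE 0.21) with an adjusted p of 0.196 with the set as a term. VhaM9.7-b (subunit e) also did not overlap, with 716 and 619 CPM in RNAi 1 and 2, against 858 and 807 CPM in wild type 1 and 2. The ring gene Vha16-1 had 5317 and 9053 CPM in RNAi 1 and 2, against 6689 and 8878 CPM in wild type 1 and 2, so that it was lower only in the first pair (ratios 0.795 and 1.02). VhaAC39-1 (subunit d, which couples rotor and ring) had 885 and 1457.5 CPM in RNAi 1 and 2, against 1157.5 and 1468 CPM in wild type 1 and 2. Its ratios were 0.764 and 0.993, so that it was lower in both pairs, but only slightly in the second. VhaM9.7-c had 32.6 and 21.7 CPM in RNAi 1 and 2, against 35.0 and 31.3 CPM in wild type 1 and 2.

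Subunit a, which forms the proton path beside the ring and is known to direct the pump to particular membranes, had its RNA spread over several abundant genes. Vha100-5 (11738948 to 11744524 of arm 2L, plus strand) had 505 and 855 CPM in RNAi 1 and 2, against 515 and 809.9 CPM in wild type 1 and 2. Vha100-2 (18390323 to 18399169 of arm 3R, minus strand) had 356 and 509.5 CPM in RNAi 1 and 2, against 479.9 and 449.7 CPM in wild type 1 and 2. Vha100-4, which lies next to it at 18386841 to 18389805 on the same strand and is known as the form used in the acid-secreting middle midgut, had 101 and 183 CPM in RNAi 1 and 2, against 150.25 and 179.9 CPM in wild type 1 and 2. All 3 genes overlapped between genotypes. Vha100-1, known from neurons, had 34.3 and 64.3 CPM in RNAi 1 and 2, against 41.9 and 70.5 CPM in wild type 1 and 2, and Vha100-3 had 3 and 0 counts in RNAi 1 and 2, against 0 and 1 in wild type 1 and 2. An antisense RNA, asRNA:CR44144, overlaps 18.1% of the exons of Vha100-5, but had at most 3 counts in any library.

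With 2 against 2 libraries, no difference in the paralogue mix of subunit a could pass the exact permutation test used for the shares. Vha100-5 made up 52.3% and 54.5% of its length-scaled counts in RNAi 1 and 2, against 44.9% and 55.0% in wild type 1 and 2. Vha100-2 made up 33.4% and 29.4% in RNAi 1 and 2, against 37.9% and 27.7% in wild type 1 and 2. Vha100-4 made up 11.2% and 12.5% in RNAi 1 and 2, against 14.0% and 13.1% in wild type 1 and 2, and was the one among the abundant forms whose share did not overlap. Its mean share was 1.71 percentage points lower in RNAi (11.8%, against 13.5% in wild type), with an exact two-sided permutation p of 0.333, the smallest that 2 against 2 libraries allow. For Vha100-5 the mean was 3.43 points higher in RNAi and for Vha100-2 it was 1.38 points lower, each with an exact permutation p of 1.0.

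**Figure D3:**
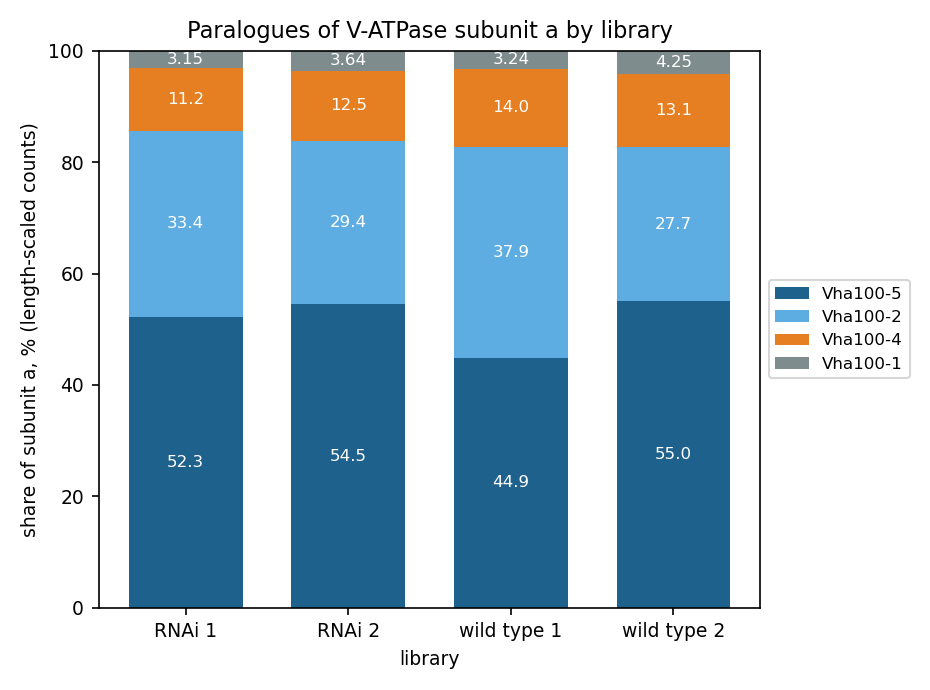
Share of each abundant paralogue in the length-scaled counts of subunit a, as stacked bars that start at 0, for the 2 RNAi and the 2 wild-type libraries. Vha100-5 is the main form in each library (44.9% to 55.0%), and the Vha100-4 share is 11.2% and 12.5% in RNAi, against 14.0% and 13.1% in wild type.

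Markers of the acid-secreting region were present. The list of 7 copper cell and acid region genes, which includes the member Vha100-4, summed to 660 and 835 CPM in RNAi 1 and 2, against 867 and 755 CPM in wild type 1 and 2. In edgeR 0 of the 7 were called, none had an unadjusted p under 0.05, and the median log2 fold change was -0.20. Without Vha100-4 the other 6 summed to 559 and 652 CPM in RNAi 1 and 2, against 717 and 575 CPM in wild type 1 and 2, with a median of -0.13. The copper cell homeobox gene lab had 12.9 and 15.1 CPM in RNAi 1 and 2, against 18.5 and 14.9 CPM in wild type 1 and 2. CAH1, a carbonic anhydrase, had 147 and 167 CPM in RNAi 1 and 2, against 210.5 and 175 CPM in wild type 1 and 2. The chloride channel gene pHCl-2 of the same list had 89.6 and 102 CPM in RNAi 1 and 2, against 79.5 and 79.0 CPM in wild type 1 and 2. The share of these cells in the level of the widely used V-ATPase genes was not tested.

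Malpighian tubule cells are rich in V-ATPase, and the tubules were taken off before extraction. The urate oxidase gene Uro, a defining principal cell marker, had 0.321 and 0 CPM in RNAi 1 and 2, against 0.900 and 0.0898 CPM in wild type 1 and 2. Summed over 7 principal cell markers the level was 120 and 101 CPM in RNAi 1 and 2, against 168 and 98.3 CPM in wild type 1 and 2, most of it from Alp4 and Irk2. ZnT35C, a zinc transporter, had 1.25 and 1.35 CPM in RNAi 1 and 2, against 4.77 and 1.71 CPM in wild type 1 and 2, and the potassium channel gene Irk3 had 3.14 and 1.79 CPM, against 9.06 and 2.69 CPM. Wild type 1, the library that RNAi 1 is divided by in the set 1 ratios, was highest for Uro, ZnT35C, Irk3, Alp4 and Irk2. For Irk2 the margin was small, with 55.4 CPM in wild type 1 against 54.3 CPM in RNAi 1. Best2 was instead highest in RNAi 2 (16.2 CPM) and CapaR in wild type 2 (0.898 CPM). The 6 stellate cell markers summed to 93.6 and 123.5 CPM in RNAi 1 and 2, against 113 and 144 CPM in wild type 1 and 2. With the set as a term Irk3 was called lower, 1 of the 6 tested principal cell genes (edgeR adjusted p = 0.0115), where 3.65% of all genes were. The part of tubule remnants in the set 1 ratios was not tested. The 10 muscle genes were all lower in RNAi in both sets, with sums of 923 and 1646 CPM in RNAi 1 and 2, against 1212 and 2408 CPM in wild type 1 and 2. Of all genes tested, 30.9% were lower in both sets. In edgeR 0 of the 10 were called, and with the set as a term 4 fell, where 3.65% of all genes were called lower. Their part in the V-ATPase values was not tested.

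Of the 2 accessory genes, VhaAC45, a glycoprotein that assists the V0 sector, was as abundant as the core subunits, with 525 and 1013 TPM in RNAi 1 and 2, against 760.3 and 1150 TPM in wild type 1 and 2. It had 867 and 1445 CPM in RNAi 1 and 2, against 1336.5 and 1776 CPM in wild type 1 and 2, with ratios of 0.649 in set 1 and 0.814 in set 2. Its log2 fold change was -0.43 (SE 0.43), and -0.46 (SE 0.21, edgeR adjusted p = 0.221) with the set as a term. ATP6AP2, an accessory subunit formerly named VhaM8.9 that the naming rule leaves out, had 728 and 929 CPM in RNAi 1 and 2, against 1025 and 1102 CPM in wild type 1 and 2. Both RNAi libraries lay below both wild-type libraries in ATP6AP2 but not in VhaAC45. Of the 9637 genes tested, 1171 had this order. Within sets 1 and 2, however, the ratios of ATP6AP2, 0.710 and 0.843, were above those of VhaAC45. VhaAC45RP, a rare relative of VhaAC45, had 61 and 37 counts in RNAi 1 and 2, against 34 and 12 in wild type 1 and 2.

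Of the rare paralogues, the 5 tested members under 5 CPM had their highest counts in RNAi 1. The 9 members that did not pass the count filter had 29 and 13 counts together in RNAi 1 and 2, against 24 and 7 in wild type 1 and 2, and at most 30 counts each over the 4 libraries. Vha16-2 had 0 counts in every library, and Vha16-5, with 3 and 1 counts in RNAi 1 and 2, against 10 and 1 in wild type 1 and 2, was highest in wild type 1. The 5 tested members under 5 CPM were VhaM9.7-a, VhaAC39-2, VhaAC45RP, Vha36-2 and Vha36-3, and each had a fitted value above 0. Of all genes tested, 49.3% had a value below 0. The count filter bears on Vha36-2, which passed through its RNAi libraries, whereas Vha68-3, with 30 counts in all and most in wild type 1, did not pass. The part of the filter in the shared sign was not tested. Vha36-3 (subunit D) had 37 and 7 counts in RNAi 1 and 2, against 8 and 5 in wild type 1 and 2, and Vha36-2 had 17 and 10 counts in RNAi 1 and 2, against 4 and 3 in wild type 1 and 2. VhaM9.7-a had 55 and 32 counts in RNAi 1 and 2, against 44 and 15 in wild type 1 and 2, and VhaAC39-2 had 56 and 41, against 39 and 16. RNAi 1 also had the most genes with any count, 14963 beside 12535 in RNAi 2, 13520 in wild type 1 and 12303 in wild type 2. Some of these paralogues are known from the testis, but of 8 testis genes none was tested, and their sum was 1.09 and 0.245 CPM in RNAi 1 and 2, against 0.554 and 0.449 CPM in wild type 1 and 2.

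In 14 of the 18 abundant members the mean log2 difference between sets was larger than that between genotypes, close to the 75.0% of all genes at that level with this order. Both set 2 libraries lay above both set 1 libraries in 11 of the 18 (38.2% of genes at that level), and below them in VhaM9.7-c and Vha14-1 (32.5% of genes). Vha26 was furthest apart, at 2.13 times its set 1 level in set 2 as a mean over both genotypes, against 0.772 for VhaM9.7-c.

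The direction of this difference went with transcript length. The 6 members with at most 1352 bases of exon, Vha14-1, VhaM9.7-c, Vha13, Vha36-1, VhaM9.7-b and VhaPPA1-1, had ratios of set 2 to set 1 between 0.772 and 1.04. The 12 members with 1792 to 3289 bases had ratios between 1.16 and 2.13. This division by length was made after the values were seen. Across the 18 members the correlation of the log2 ratio with log2 length was 0.919 in RNAi and 0.805 in wild type, each between 1 library and another, as a description without a test. Levels of short and long subunits relative to each other, on the TPM scale too, therefore depended on the set.

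**Figure D4:**
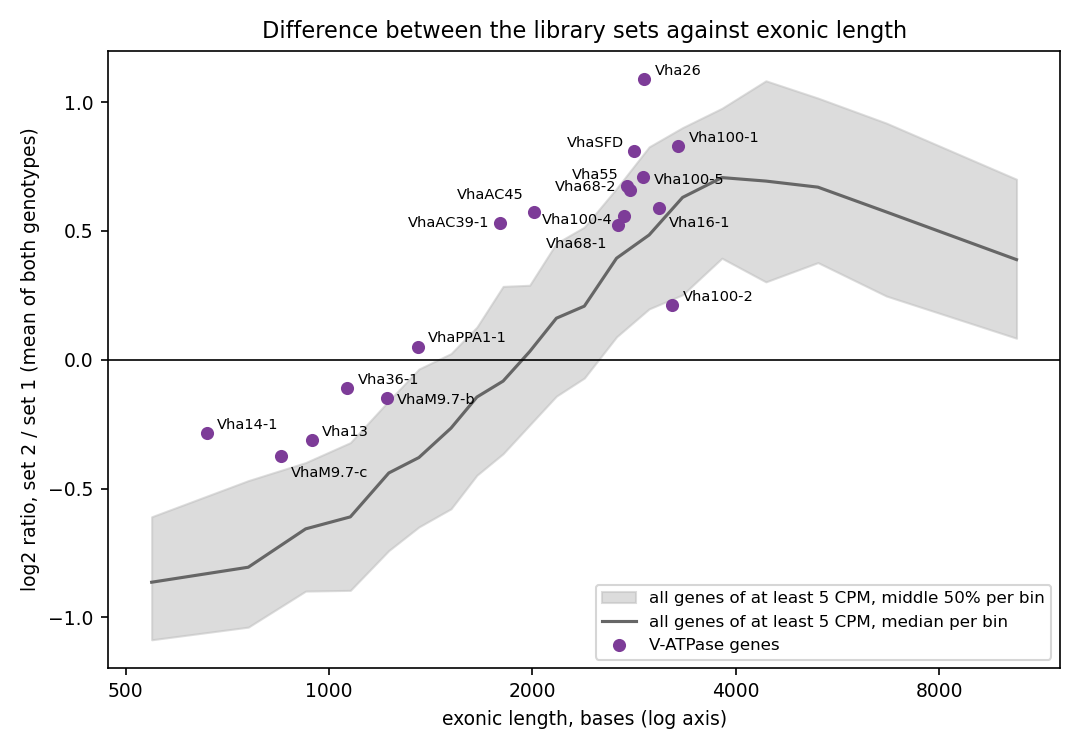
Log2 ratio of set 2 to set 1, as the mean of both genotypes, against exonic length in bases (log axis). The grey line and band are the median and the middle 50% of all genes of at least 5 CPM in 20 length bins, and purple points are the 18 V-ATPase genes. The points climb with length as the line does, and Vha100-2 is the one member below the line.

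Removal of the length trend from each library, a setting added once the data had been seen, brought the subunits closer to each other. The set 2 to set 1 ratio of the 18 members then lay between 0.812 and 1.57, above 1 in 17 of them, where 49.3% of genes at that level were above 1. The medians of the 6 short and 12 long members were 1.27 and 1.21. On this scale 16 of 18 were lower in RNAi in both sets, where 35.0% of genes were, and 7 had both RNAi libraries below both wild-type libraries, where 17.1% of genes did. The fitted median log2 fold change of the 23 tested members was -0.24, and edgeR called 0 of them with or without the set as a term.

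Genes that assemble the pump or share its compartment were not called either. In edgeR none of the 5 tested assembly and RAVE genes and none of the 15 tested lysosomal genes passed, with 0 and 1 at an unadjusted p under 0.05, and the median log2 fold changes were -0.01 and 0.01. Of the 5 assembly and RAVE values, 4 were below 0 and 1 above. The value above 0 was that of Rbcn-3A, a subunit of the RAVE complex that rejoins V1 and V0. Rbcn-3A had 56.4 and 65.8 CPM in RNAi 1 and 2, against 44.3 and 60.3 CPM in wild type 1 and 2. CG5969 of the same list had 76.6 and 59.0 CPM in RNAi 1 and 2, against 92.5 and 71.7 CPM in wild type 1 and 2. Its ratios were 0.828 in set 1 and 0.823 in set 2. Mitf, the transcription factor known to drive V-ATPase and lysosomal genes in the fly, had 85.8 and 107 CPM in RNAi 1 and 2, against 117 and 117 CPM in wild type 1 and 2, with no overlap and a log2 fold change of -0.28. Mitf was named for this role and not by its p. Of the 15 tested lysosomal genes, 2 had both RNAi libraries below both wild-type libraries and 2 had them above. Of the 9637 genes tested, 1171 and 1161 did. With the set as a term 2 lysosomal genes rose, Gba1b, a glucocerebrosidase gene at 2.21 and 2.20 CPM in RNAi 1 and 2, against 0.554 and 0.180 CPM in wild type 1 and 2 (edgeR adjusted p = 0.00460), and the sterol carrier gene Npc2a at 75.3 and 40.9 CPM, against 37.8 and 34.8 CPM (adjusted p = 0.0317). That share, 2 of 15, stands beside 3.45% of all genes called higher.

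The mitochondrial ATP synthase, a rotary relative that runs in the direction of ATP synthesis, had a similar median. Of its 13 genes 0 were called in edgeR and 0 were at an unadjusted p under 0.05, the median log2 fold change was -0.21, and 12 of 13 values were below 0, where 49.3% of all genes tested were. ATPsynbeta, the catalytic subunit, had 1308 and 1789.7 CPM in RNAi 1 and 2, against 1828 and 2003 CPM in wild type 1 and 2. ATPsynB, of the peripheral stalk, had 596 and 376 CPM in RNAi 1 and 2, against 836 and 451 CPM in wild type 1 and 2. Both RNAi libraries lay below both wild-type libraries in ATPsynbeta, whereas the genotypes overlapped in ATPsynB. ATPsynbeta was the 1 gene of the 13 with this order, which 1171 of the 9637 genes tested had. In 9 of 13 RNAi was lower in both sets, where 30.9% of all genes tested were.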

How the data were processed

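The authors deposited raw read counts per gene, whole numbers without normalization, for 4 libraries. Per the submitters' processing notes, FastQC, STAR and the BDGP6 assembly were used; the versions, the counting tool, its strandedness and the gene models are not given in the sources used here. Reads of overlapping genes and close paralogues therefore carry an unknown split. Identifiers were paired with symbols for 17405 of 17510 genes. Counts were tested in R 4.3.3 with edgeR 4.0.16 (filterByExpr, TMM, robust quasi-likelihood fit, Benjamini-Hochberg adjustment over 9637 genes, threshold 0.05); DESeq2 1.42.0 and limma-voom (limma 3.58.1) were alternatives. The main fit had genotype as its only term. TPM divided counts by the union of annotated exons in BDGP6. The length trend was a loess fit (span 0.5) per library, added after the data were examined. Intervals of ratios were exact binomial at 95% and cover counting error only. The edgeR step was checked on simulated counts. Other alternatives were upper-quartile or RLE factors, scaling by library size alone, other filters, a non-robust fit, a fit without the 20 most abundant genes, each library left out and the library set as a term. Members, lists, sets and alternatives were chosen with earlier results of these data known. The genes named were all members, by role, and up to 2 of each other list with the smallest p, with Cftr. For their role lab, Uro, Mitf and ATP6AP2 were added, and for their level alphaTry, Alp4 and Irk2. Best2 and CapaR were added as the principal cell markers not highest in wild type 1.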

Additional observations from a re-analysis of the deposited data

How the results depend on the processing

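No V-ATPase gene was called under any of the 19 alternative settings, and 408 of 431 single-gene values kept their sign. The exceptions came from left-out libraries, apart from Vha14-1, at 0.043 with library size alone and 0.038 with the set term added. Over the fits without 1 library, log2 fold changes ran from -0.59 to 0.22 for Vha16-1, -0.86 to 0.061 for Vha68-2, -0.61 to 0.15 for VhaAC39-1, -1.12 to 0.25 for Vha26, -0.22 to 0.057 for Vha14-1, -0.73 to 0.16 for Vha55, -0.44 to 0.43 for Vha100-5, -0.90 to 0.14 for VhaSFD, -0.42 to 0.13 for Vha100-2, -0.75 to 0.15 for Vha100-4, -0.75 to 0.26 for Vha100-1, -0.15 to 0.25 for VhaM9.7-a, -0.25 to 1.75 for Vha36-3, -0.44 to 0.13 for the median of tested members and -1.48 to 0.20 for Cftr. Without a change of sign, they moved by over 1.5 times for VhaAC45 (-0.89 to -0.11), Vha68-1 (-0.85 to -0.16), VhaM9.7-c (-0.61 to -0.065), Vha13 (-0.50 to -0.19) and Vha36-2 (0.79 to 1.76). Cftr was called lower with the set term by limma-voom (-0.66, adjusted p = 0.0341) and with edgeR and library size alone (-0.56, adjusted p = 0.0190). The count of all genes called, 12, was 1 with either upper-quartile factors or a 5 CPM minimum, 120 without a count filter, 92 by DESeq2, 23 with the length trend removed and 58 to 120 without 1 library. With the set term it was 684 (332 higher, 352 lower), 409 by DESeq2, 799 by limma-voom, 968 (628 higher, 340 lower) with library size alone and 708 with the length trend removed. Of the 18 members of at least 5 CPM, 4 had both RNAi below both wild-type libraries, beside 11.8% of genes at that level. With the length trend removed 7 did, beside 17.1% of genes. Upper-quartile factors left 3, beside 766 of the 6760 genes, and library size alone left 3, beside 544. Where a left-out library left 1 in a genotype, it was assumed to vary like the others, and the cause of these changes was not tested. With the set term 1 residual degree of freedom is left, and the sets come from the same counts, so its p-values can be too small. The labels carry no replicate numbers, so the set term, which pairs RNAi 1 with wild type 1 and RNAi 2 with wild type 2 from the counts alone, was the only pairing tried. Members under 5 CPM are limited by depth.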

Other observations

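The genes through which the V-ATPase meets nutrient sensing and ion exchange showed no call between the genotypes. Of 6 tested Ragulator and Rag GTPase genes, which tie the pump to TOR signalling at the lysosome, edgeR called 0 with 0 at an unadjusted p under 0.05, and the median log2 fold change was -0.02. Lamtor5 had 50.9 and 33.7 CPM in RNAi 1 and 2, against 56.6 and 46.7 CPM in wild type 1 and 2, and RagA-B had 35.9 and 44.7 CPM in RNAi 1 and 2, against 37.3 and 54.4 CPM in wild type 1 and 2. Of 11 sodium and proton exchangers, sodium pump subunits and vesicular chloride exchangers, edgeR also called 0, with 0 at an unadjusted p under 0.05 and a median of 0.10. Nhe2, a sodium and proton exchanger, had 48.9 and 33.5 CPM in RNAi 1 and 2, against 27.0 and 28.7 CPM in wild type 1 and 2, with no overlap and a log2 fold change of 0.56 (edgeR adjusted p = 1.0, and 0.0512 with the set as a term). The sodium pump subunit gene nrv2 had 7.31 and 10.2 CPM in RNAi 1 and 2, against 12.5 and 11.2 CPM in wild type 1 and 2. It too had no overlap, and its log2 fold change was -0.44. Of the 11 genes, 2 had both RNAi libraries below both wild-type libraries and 2 had them above. Of the 9637 genes tested, 1171 and 1161 did.

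The length-scaled sums of the sectors stayed near each other in each library. The V1 genes summed to 0.944 and 0.818 times the V0 genes in RNAi 1 and 2, against 0.923 and 0.890 times in wild type 1 and 2, with Vha44 left out of V1. All members together took 1.60% and 2.53% of the counts in RNAi 1 and 2, against 1.93% and 2.58% in wild type 1 and 2.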
